A study of Xenopus tropicalis with 9 samples.

Results

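RNA of whole early blastula embryos (Nieuwkoop-Faber stage 6) of the frog Xenopus tropicalis was sequenced from a polyA library and from a ribosomal RNA depleted (RZ) library, and the level of each gene in the polyA library was set against its level in the RZ library. The embryos came from in vitro fertilization in 3 crosses of outbred animals primed with gonadotropin, with no transgene, mutation or other treatment named in the labels. For the polyA library total RNA was selected on oligo(dT) beads, with an additional round of selection, and for the RZ library it was depleted of ribosomal RNA. RNA of 3 biological replicates was pooled before sequencing, so each condition had 1 library, the replicate error is unknown and no test was made. A gene entered the comparison when it had at least 1 RPKM (reads scaled to exon length and to all mapped reads of the library) in 1 of the libraries and was listed above 0 in both. This rule took 8905 of the 15288 genes of the table. The measure was the log2 of polyA RPKM over RZ RPKM minus its median over these genes, called the centred ratio below, and a gene is described as lying at an end when its centred ratio was 1 or more, or -1 or less, which is 2-fold from the median.

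The polyA tail of an mRNA is added in the nucleus and can be shortened or lengthened in the cytoplasm. Cleaving embryos of Xenopus hardly transcribe and live on mRNA stored by the mother. In them tail length is set by deadenylation and by cytoplasmic polyadenylation, and it goes along with translation, with long tails on translated mRNAs and short tails on stored ones. Replication-dependent histone mRNAs end in a stem-loop in most cells and carry no tail. Selection on oligo(dT) holds an RNA by its tail, while depletion of ribosomal RNA keeps tailed and untailed RNA alike. The comparison therefore asks which maternal mRNAs were taken up well and which poorly by oligo(dT) at a stage before the embryo's own genome is switched on. The ratio is relative. It measures no tail length, and RPKM is scaled to the reads of its own library.

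The RPKM of the polyA library was scaled to 44490754 reads and that of the RZ library to 22365493, both found from the values of genes that have 1 exon. These totals are called mapped reads after the definition of RPKM and were not checked against counts of aligned reads. On 1 kb of exon, 3 reads corresponded to 0.0674 RPKM in polyA against 0.134 RPKM in RZ. For genes with several exons the reads behind a value are unknown. Genes known to be switched on after the mid-blastula transition checked the stage label against later stages. None of the 30 on the list reached 1 RPKM in either library, 20 were listed at 0 in both, and their RPKM summed to 0.519 in polyA and 0.744 in RZ. By the same filter 1 of them had a ratio in oocyte and 22 at stage 9, so the list cannot tell stage 6 from oocyte. Of 75 genes of muscle, blood, skin, neuron and matrix, 7 entered the comparison and 45 were listed at 0 in both libraries, among them acta1, hba1 and neurod4. Their RPKM summed to 419 in polyA and 279 in RZ, of which the keratin gene krt18 alone gave 372 RPKM in polyA against 205 RPKM in RZ. In bulk embryo RNA, fewer cells of a type and less RNA per cell cannot be told apart.

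Over the 8905 genes the uncentred log2 of polyA over RZ had a median of -0.63, and 6246 genes (70.1%) had the higher RPKM in RZ. Around the median the centred ratio had an SD of 1.36 across genes, with quartiles at -0.85 and 0.82 and 5th and 95th percentiles at -2.23 and 2.22. It ran from -8.26 to 7.96. At least 2-fold above the median lay 1832 genes (20.6%), and at least 2-fold below it lay 1937 (21.8%). With the median of the 4305 genes that reached 5 RPKM in both libraries as the centre, which sets all values lower by 0.33, 1271 genes lay above and 2651 below. At least 4-fold above the median lay 577 genes (6.48%) and at least 4-fold below it 604 (6.78%). The plot of polyA against RZ levels shows a cloud around the median line, with most of the histones beneath it.

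**Figure D1:**
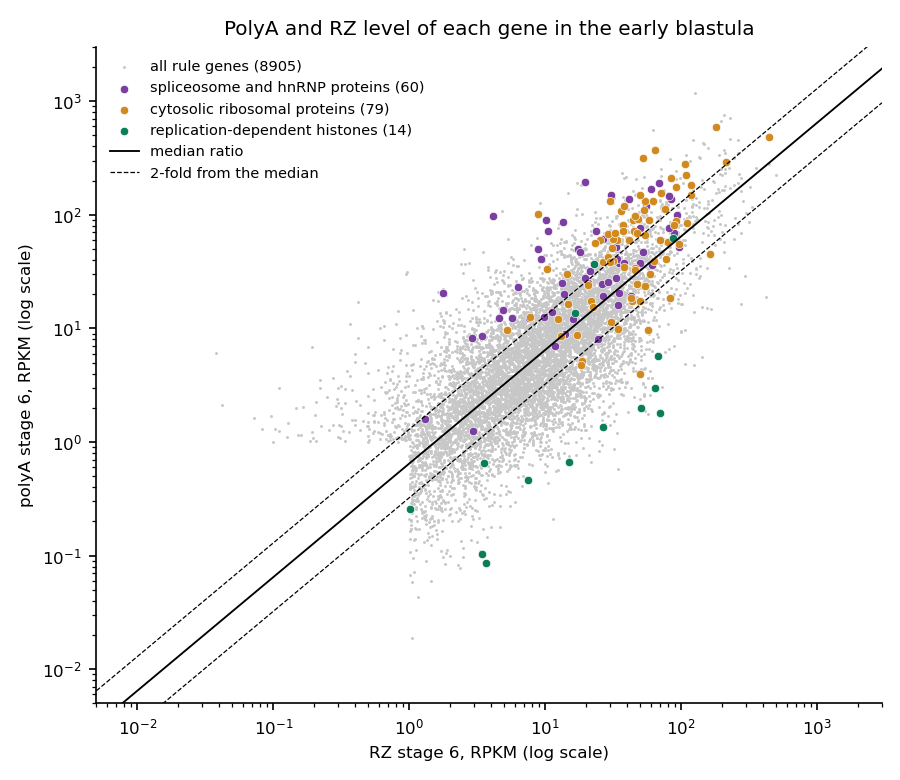
RPKM of each of the 8905 genes at stage 6 in the polyA library (vertical axis, log scale) against the RZ library (horizontal axis, log scale), with 3 gene lists in colour, the median ratio as a solid line and 2-fold distances from it as broken lines. Of the 14 histone genes 11 lie below the lower broken line, while 34 of 60 splicing genes and 41 of 79 ribosomal protein genes lie above the upper one.

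Most of the genes left out had no sizeable level. At 0 in both libraries were 2720 genes, and 3660 were above 0 in at least 1 library but below 1 RPKM in both. Just inside the filter lay tiparp, with 0.747 RPKM in polyA against 1.001 RPKM in RZ, and just outside it nat9, with 0.998 RPKM in polyA against 0.760 RPKM in RZ. A further 3 genes reached 1 RPKM in 1 library and were listed at 0 in the other. All 3 have short single-exon models. The gene listed as tpp1 (scaffold 6583, 423 to 560) had 102 reads in polyA and 0 in RZ, which is 17.1-fold the RPKM of a floor of 3 reads in RZ. The gene kiss2 had 23 reads in polyA and 0 in RZ, or 3.85-fold that floor. The gene thsd4 had 0 reads in polyA and 9 in RZ, which is 5.97-fold the RPKM of 3 reads in polyA. These folds are not centred on the median ratio and leave out the counting error of the reads.

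The genes with the lowest centred ratios were not of a single kind. They are the 8 lowest with at least 10 RPKM in 1 of the libraries. The lowest was leprel1 (scaffold 5, 6194931 to 6228836), which encodes a collagen prolyl hydroxylase, with 0.208 RPKM in polyA, 11.4 RPKM in RZ and a centred ratio of -5.14. Next came the histone H2A gene hist1h2ad, with 1.81 RPKM in polyA, 70.3 RPKM in RZ and a centred ratio of -4.65. For ska2 (scaffold 2, 26634320 to 26648213), a subunit of a complex that holds kinetochores on microtubules, the values were 0.859 RPKM in polyA against 32.0 RPKM in RZ, and the centred ratio was -4.58. A pair of genes of protein turnover and its control followed. The gene rnf31, whose product builds linear ubiquitin chains, had 0.666 RPKM in polyA, 21.6 RPKM in RZ and a centred ratio of -4.39, and psma3, a subunit of the outer ring of the proteasome core, had 1.88 RPKM in polyA, 54.6 RPKM in RZ and a centred ratio of -4.23. The COP9 signalosome subunit cops4, which acts on cullin ubiquitin ligases, stood at 1.20 RPKM in polyA, 33.8 RPKM in RZ and -4.18. The nuclear pore gene nup155 had 1.77 RPKM in polyA, 56.8 RPKM in RZ and a centred ratio of -4.37. The receptor gene ldlr, for uptake of low-density lipoprotein, had 0.834 RPKM in polyA, 25.03 RPKM in RZ and a centred ratio of -4.27. Some of these genes had quite other values at the other stages, though choice by an extreme stage 6 ratio favours less extreme values elsewhere. The polyA library held 82.3 RPKM of ska2 in oocyte, 0.859 RPKM at stage 6 and 11.8 RPKM at stage 9, and the centred ratio of psma3 was 1.25 in oocyte and -1.08 at stage 9. The ratio of hist1h2ad lay below -3 at each of the 3 stages, with -3.05 in oocyte and -3.57 at stage 9.

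At the other end 7 of the 8 highest genes are described, and several of them act in the nucleus. The highest was gps2 (scaffold 3079, 666 to 5643), a subunit of a nuclear corepressor complex, with 17.2 RPKM in polyA, 0.421 RPKM in RZ and a centred ratio of 5.99. The gene wrap53 (scaffold 108, 207502 to 212408), whose product brings RNAs to Cajal bodies, had 31.5 RPKM in polyA, 0.955 RPKM in RZ and a centred ratio of 5.68. The endoplasmic reticulum exit site gene sec16a followed with 30.4 RPKM in polyA, 0.940 RPKM in RZ and 5.65. The RNA packaging gene hnrnpa3 had 96.7 RPKM in polyA, 4.11 RPKM in RZ and a centred ratio of 5.19. The transcription gene med21, a Mediator subunit (scaffold 3210, 776 to 5214), had 107.7 RPKM in polyA, 4.84 RPKM in RZ and a centred ratio of 5.11. The sepiapterin reductase gene spr, of tetrahydrobiopterin synthesis, stood at 14.3 RPKM in polyA, 0.829 RPKM in RZ and 4.74. Last came the single-exon gene purb, which encodes a protein that binds purine-rich single strands, with 559 reads in polyA, 17 reads in RZ and a centred ratio of 4.68 (95% interval 3.99 to 5.47, exact binomial). Such intervals cover the counting error of reads only. The high ratio of gps2 recurred at stage 9, where it was 5.05, whereas wrap53 and sec16a had -0.01 and -0.03 in oocyte, and purb had -0.32 in oocyte and -1.80 at stage 9. The genes at this end too were chosen by their stage 6 ratio, which favours less extreme values at the other stages. Of these 7 genes, gps2, wrap53 and med21 lie outside the 10 large scaffolds, and of the 8 at the low end ldlr alone does.

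**Figure D2:**
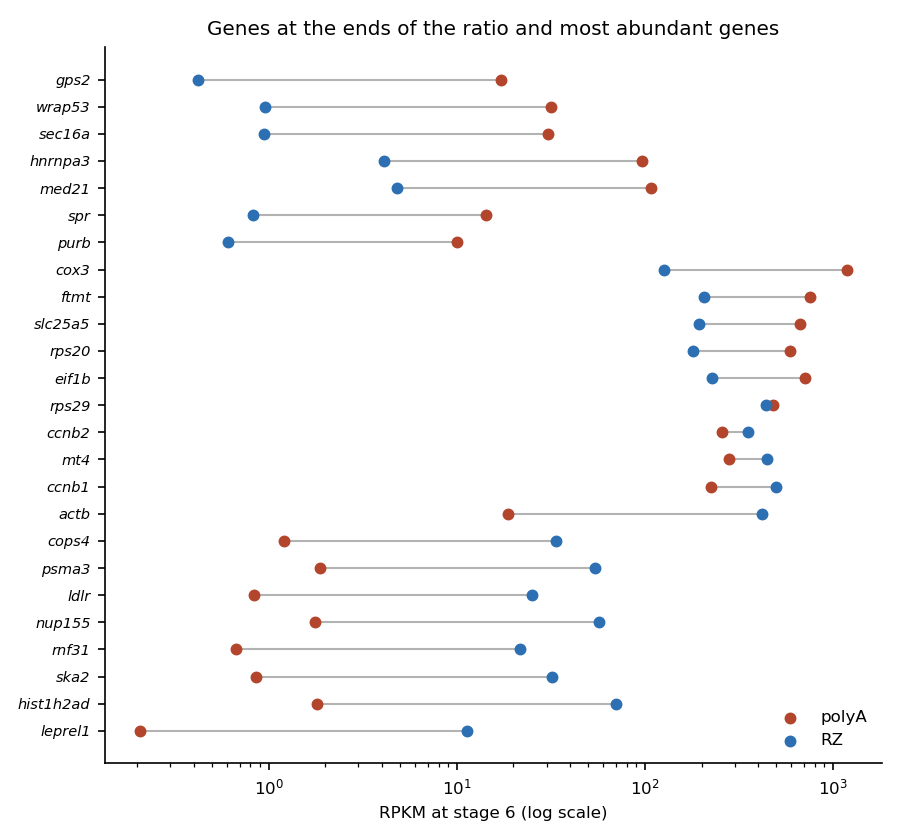
RPKM at stage 6 (horizontal axis, log scale) in polyA and RZ for 7 of the 8 highest and the 8 lowest centred ratios and for the 5 genes with the highest RPKM in each library, ordered from the highest centred ratio at the top. The points of gps2 lie at 17.2 RPKM in polyA against 0.421 RPKM in RZ, those of leprel1 at 0.208 RPKM in polyA against 11.4 RPKM in RZ, and those of rps29 nearly coincide.

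The functional groups were described by 35 lists with at least 5 genes in the comparison, which held 1868 of the 8905 genes with 2 smaller lists. The median centred ratio of 26 of them lay within 0.5 of 0. Counts at the ends of a list are to be read against the shares of all genes, 20.6% at the high end and 21.8% at the low end. Members of a list were spread widely around its median, and the SD of the centred ratio over the members was above 1 in 33 of the 35 lists. The plot of all list members by their ratio shows this spread, with the histones apart at the low end. The lists with the lowest medians were the replication-dependent histones, the aminoacyl-tRNA synthetases, DNA repair, DNA replication and the egg coat genes. The highest medians belonged to the spliceosome and hnRNP proteins, the cytosolic ribosomal proteins, the replacement histone variants, the nuclear-encoded respiratory chain and the cell contact genes.

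**Figure D3:**
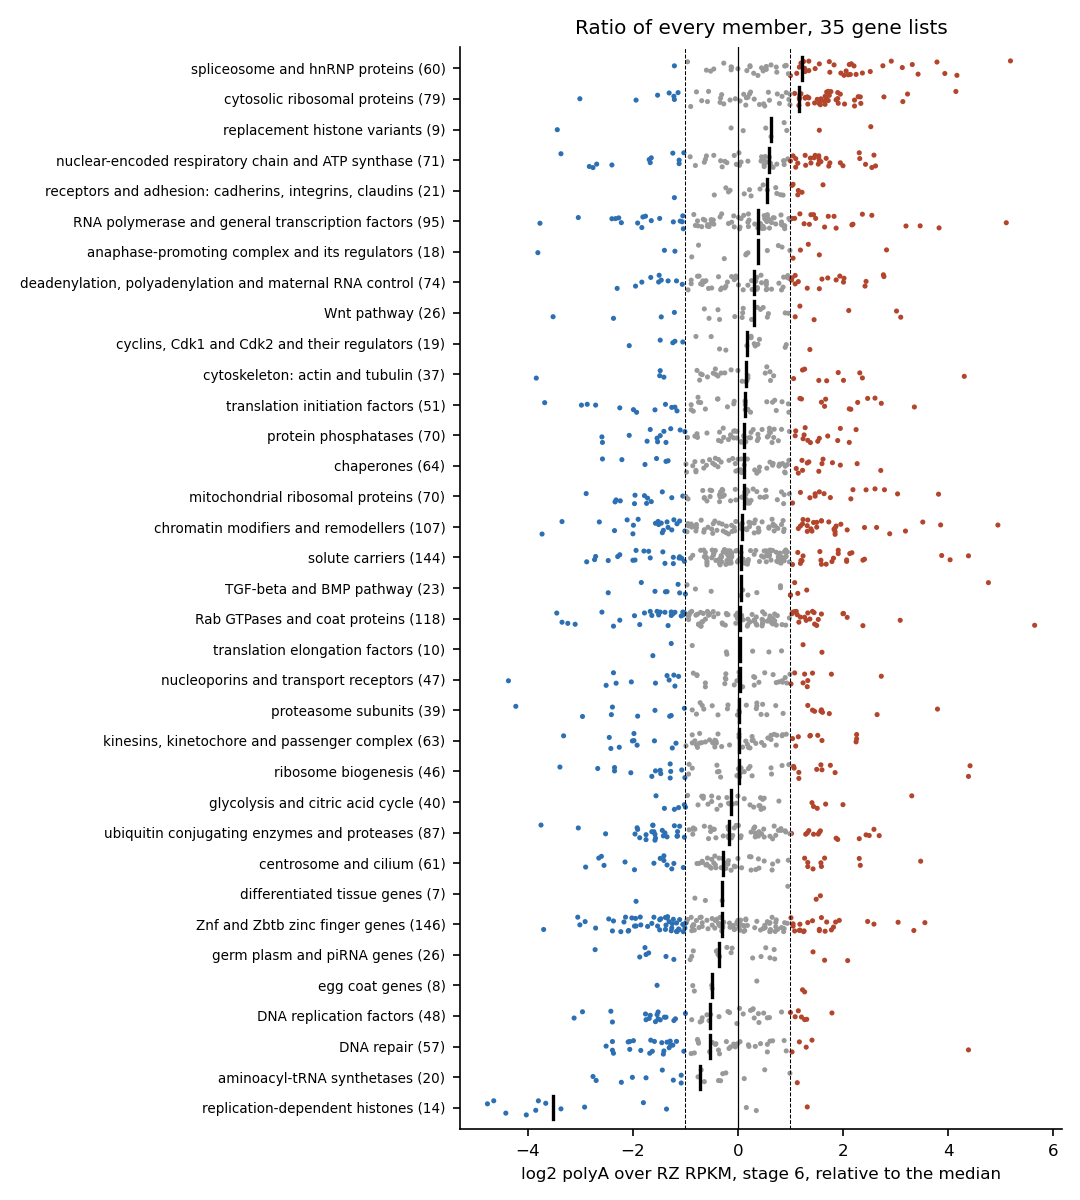
Centred log2 ratio of polyA over RZ at stage 6 (horizontal axis) of every member of 35 gene lists, with the number of genes in brackets, the list median as a black bar and lists ordered by median. Points at 1 or more are red, those at -1 or less blue. The medians run from -3.52 for the replication-dependent histones to 1.22 for the spliceosome and hnRNP proteins.

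The histones that package newly made DNA stood at the low end. Of the 22 genes on the list 14 entered the comparison, with a median centred ratio of -3.52, and 11 of the 14 (78.6%, against 21.8% of all genes) lay 2-fold or more below the median. The list median was below 0 under each alternative that gave a value (too few members reached 5 RPKM in both libraries for that filter), but it was -1.81 with a pseudocount of 1 and -1.73 with genes on scaffolds 1 to 10 alone, since hist1h4a, hist2h2ab, hist1h2al, hist2h2be and hist1h2bj lie elsewhere. The lowest was the H4 gene hist1h4c (scaffold 8, 50773323 to 50774106), with 3 reads in polyA, 64 reads in RZ and a centred ratio of -4.77 (95% interval -7.09 to -3.16). By histone type, chosen after the values were seen, the 3 H4 genes had a median of -4.03, the 6 H2A genes -3.83 and the 4 H2B genes -2.59. The more abundant hist1h4d, also H4, had 5.74 RPKM in polyA, 67.3 RPKM in RZ and a centred ratio of -2.92, and hist1h2al, an H2A gene, had 2.97 RPKM in polyA, 64.2 RPKM in RZ and -3.80. A set of 3 members did not share this. The most abundant member, hist1h2aa, had 62.5 RPKM in polyA, 86.8 RPKM in RZ and a centred ratio of 0.16. The gene hist1h2am had 13.7 RPKM in polyA, 16.6 RPKM in RZ and 0.35, and the H3 gene hist1h3g had 37.0 RPKM in polyA, 22.96 RPKM in RZ and 1.32. Of the linker histones on this list none entered the comparison, as hist1h1d was listed at 0 and hist1h1t was below 1 RPKM in both libraries. Reads that mapped to several copies were left out, so these values cover the unique parts of the histone genes only and near-identical copies remain uncertain.

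The replacement histones, which are loaded outside DNA replication and mostly come from tailed mRNA, lay apart from them. Of 9 genes 7 had a centred ratio above 0, and the list median was 0.63, or 0.10 when centred within bins of genomic span and -0.01 without centring. At the high end lay 2 (22.2%, near the 20.6% of all genes) and at the low end 1 (11.1%, against 21.8%). The gene h3f3a, for the H3.3 variant, had 459.6 RPKM in polyA, 123.006 RPKM in RZ and a centred ratio of 2.53, and the oocyte linker histone gene h1foo had 51.1 RPKM in polyA, 27.1 RPKM in RZ and 1.55. The H2A variant gene h2afv had 78.4 RPKM in polyA, 113 RPKM in RZ and 0.10. The exception was h2afx, which marks DNA breaks and whose mRNA in mammals is made both with a tail and with a histone stem-loop. It had 559 reads in polyA, 4738 reads in RZ and a centred ratio of -3.44 (95% interval -3.57 to -3.32), and it was low at both other stages too, with -4.24 in oocyte and -2.45 at stage 9. The copies h3f3a and h3f3b encode the same protein, and their split of reads is uncertain.

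The enzymes that charge tRNAs with amino acids had the next lowest median. It was -0.73 over all 20 genes, of which 9 (45%) lay 2-fold or more below the median of all genes and 1 lay above. Lowest was the asparagine enzyme nars, with 2.88 RPKM in polyA, 30.3 RPKM in RZ and a centred ratio of -2.76. The isoleucine enzyme iars had 4.97 RPKM in polyA, 30.9 RPKM in RZ and -2.01. The methionine enzyme mars, the most abundant by its mean, was nearer the middle with 19.3 RPKM in polyA, 36.5 RPKM in RZ and -0.29, and the aspartate enzyme dars alone reached the high end, with 27.9 RPKM in polyA, 19.8 RPKM in RZ and 1.13. The median of the list ran between -1.06 and -0.63 under the alternatives that centre the ratio.

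The DNA replication genes had a median of -0.53 over 48 genes, with 17 (35.4%) at the low end and 6 (12.5%) at the high end. The Mcm2 to Mcm7 proteins form the helicase that opens DNA, and 4 of these 6 genes lay at the low end, with a median of -1.68 (a group chosen after the values were seen). The gene mcm3 had 5.47 RPKM in polyA, 45.4 RPKM in RZ and a centred ratio of -2.42, and mcm2 had 11.8 RPKM in polyA, 62.2 RPKM in RZ and -1.76. In contrast mcm7 had 101.9 RPKM in polyA, 154.8 RPKM in RZ and 0.03. Genes of the fork differed likewise. The catalytic subunit of polymerase epsilon, pole, had the lowest value of the list with 1.30 RPKM in polyA, 17.6 RPKM in RZ and -3.12, while its small subunit pole2 had 52.7 RPKM in polyA, 38.5 RPKM in RZ and 1.09. Of the single-strand binding protein, the large subunit rpa1 had 4.47 RPKM in polyA, 53.8 RPKM in RZ and -2.96, and the small subunit rpa3 had 138 RPKM in polyA, 121 RPKM in RZ and 0.83. The sliding clamp gene pcna had 68.7 RPKM in polyA, 276 RPKM in RZ and -1.37. The ribonucleotide reductase gene rrm2.2, the most abundant of the list in polyA, had 168 RPKM in polyA, 185 RPKM in RZ and 0.49.

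Among 57 DNA repair genes the median was -0.54, with 23 (40.4%) at the low end and 5 (8.77%) at the high end. The lowest was brca1, of recombination repair, with 1.72 RPKM in polyA, 15.3 RPKM in RZ and a centred ratio of -2.51. The cohesin subunit rad21, which the pattern of symbols also took, had 34.4 RPKM in polyA, 55.3 RPKM in RZ and -0.05, and rad23b, of damage recognition, had 17.0 RPKM in polyA, 14.2 RPKM in RZ and 0.88. The parp9 gene stood far from the rest at 4.39, with 1.99 RPKM in polyA against 0.147 RPKM in RZ. That RZ value is near the 0.134 RPKM of 3 reads on 1 kb of exon. The reads behind it are unknown, so the size of this ratio is uncertain.

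Egg coat genes, which encode the zona pellucida proteins made by the growing oocyte, had a median of -0.49 over 8 genes. The values were mixed, with 1 gene (12.5%, against 21.8% of all genes) at the low end and 2 (25%, against 20.6%) at the high end. The gene zpax had 9.22 RPKM in polyA, 41.6 RPKM in RZ and a centred ratio of -1.54, zp2 had 22.98 RPKM in polyA, 50.4 RPKM in RZ and -0.50, and zpd had 29.7 RPKM in polyA, 36.0 RPKM in RZ and 0.36. The most abundant, zp4, had 121 RPKM in polyA, 80.2 RPKM in RZ and 1.23.

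The spliceosome and hnRNP list, whose proteins cut introns from pre-mRNA and package RNA, had the highest median. It was 1.22 over 60 genes, of which 34 (56.7%, against 20.6% of all genes) lay 2-fold or more above the median and 1, prpf8, lay below. At least 4-fold above the median lay 19 of them. Without centring the median was 0.59, and the other alternatives put it between 0.77 and 1.32. The hnRNP proteins, chosen as a group after the values were seen, held 13 of 16 genes at the high end with a median of 1.95. After hnrnpa3 the highest of these was hnrnpa1, with 193 RPKM in polyA, 19.6 RPKM in RZ and a centred ratio of 3.94, followed by hnrnpa2b1 with 90.8 RPKM in polyA, 10.204 RPKM in RZ and 3.79. By the mean of both libraries the most abundant of them, hnrnpab, had 170 RPKM in polyA, 60.5 RPKM in RZ and 2.12. The SR proteins, which bind exons and guide splice site choice, had a median of 1.25 over 11 genes, a group also chosen after the values were seen. Among them srsf2 had 189 RPKM in polyA, 68.4 RPKM in RZ and 2.10, srsf5 had 145.7 RPKM in polyA, 81.8 RPKM in RZ and 1.47, and srsf4 had 20.5 RPKM in polyA, 1.77 RPKM in RZ and 4.17. Below 0 lay 9 of the 60 genes, among them prpf8, at the core of the U5 particle, and prpf31, which joins particles of the spliceosome. The gene prpf8 had 5.09 RPKM in polyA, 18.3 RPKM in RZ and -1.21, and prpf31 had 19.4 RPKM in polyA, 42.9 RPKM in RZ and -0.52.

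The cytosolic ribosomal proteins had a median of 1.16 over 79 genes, with 41 (51.9%) at the high end and 7 (8.86%) at the low end. Their levels were high in both libraries, with a median of 60.0 RPKM in polyA against 45.7 RPKM in RZ. The small and large subunits, split after the values were seen, had medians of 1.62 over 32 genes and 0.58 over 47 genes. By the mean of both libraries the most abundant was rps29, with 479 RPKM in polyA, 441 RPKM in RZ and a centred ratio of 0.75. The gene rps20 had 587 RPKM in polyA, 181 RPKM in RZ and 2.33, and the stalk gene rplp0 had 294 RPKM in polyA, 215 RPKM in RZ and 1.08. The ends of the list were far apart. The highest, rps26, had 100.9 RPKM in polyA, 8.81 RPKM in RZ and 4.15, and the lowest, rpl5, had 3.96 RPKM in polyA, 49.5 RPKM in RZ and -3.01. The gene rps3a had 9.62 RPKM in polyA, 57.3 RPKM in RZ and -1.94. In oocyte no member of the list lay at the low end, and rpl5 stood at 2.42 and rps3a at 1.26. The list median ran between 0.47 and 1.24 under the alternatives that centre the ratio, and without centring it was 0.53.

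The nuclear-encoded subunits of the respiratory chain and ATP synthase had a median of 0.60 over 71 genes, or -0.04 without centring, with 26 (36.6%) at the high end and 12 (16.9%) at the low end. The ATP synthase subunits were among the most abundant. The gene atp5b had 468 RPKM in polyA, 227 RPKM in RZ and a centred ratio of 1.68, and atp5g3 had 389 RPKM in polyA, 157 RPKM in RZ and 1.95. The cytochrome oxidase gene cox7a2 had 353 RPKM in polyA, 211 RPKM in RZ and 1.38. Complex I held both ends of the list. The subunit ndufc1 had 93.2 RPKM in polyA, 23.4 RPKM in RZ and 2.62, whereas its partner ndufc2 had 3.25 RPKM in polyA, 52.0 RPKM in RZ and -3.37. The 5 lowest members of the list were ndufc2, ndufa5, uqcr10, ndufv2 and ndufs6, all between -3.37 and -2.40 at stage 6, and in oocyte all of them had a centred ratio above 0. Of the 71 list members 49 lay at the high end in oocyte and 0 at the low end, so this does not set these 5 apart. The gene listed as cox3, named for a subunit that mitochondria encode and placed by the table on scaffold 6, had 1181 RPKM in polyA, 126 RPKM in RZ and 3.86.

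The cell contact genes (cadherins, integrins, claudins and their partners) had a median of 0.56 over 21 of 122 genes, or -0.07 without centring. At the high end lay 6 (28.6%, against 20.6% of all genes) and at the low end 1 (4.76%, against 21.8%). Claudins seal the outer cells of the blastula, and cldn7 had 125 RPKM in polyA, 63.4 RPKM in RZ and a centred ratio of 1.62. The single-exon gene cldn4 had 95.5 RPKM in polyA, 66.9 RPKM in RZ and 1.15. The maternal cadherin gene cdh3, which holds blastomeres together, had 91.0 RPKM in polyA, 130 RPKM in RZ and 0.12.

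Genes of the cell cycle, whose maternal mRNAs drive cleavage divisions, lay around the middle as a list, with a median of 0.17 over 19 genes, and differed by partner. At the high end lay 1 (5.26%, against 20.6% of all genes) and at the low end 5 (26.3%, against 21.8%). The list median ran between -0.52 and 0.28 under the alternatives that centre the ratio, so its side of 0 is not fixed. The B-type cyclin gene ccnb1 had 224 RPKM in polyA, 495 RPKM in RZ and a centred ratio of -0.51, and ccnb2 had 256 RPKM in polyA, 353 RPKM in RZ and 0.17. The kinase that cyclin B activates, cdk1, had 58.1 RPKM in polyA, 207 RPKM in RZ and -1.20, against 1.52 in oocyte and 0.39 at stage 9. The A-type cyclin ccna2 had 116 RPKM in polyA, 95.5 RPKM in RZ and 0.92, with -1.58 in oocyte. The inhibitory kinase gene wee2 had 129 RPKM in polyA, 77.6 RPKM in RZ and 1.37. The anaphase-promoting complex list had a median of 0.38 over 18 genes. Its inhibitor fbxo5 had 4.88 RPKM in polyA, 106 RPKM in RZ and -3.81, whereas the subunit anapc11 had 106.8 RPKM in polyA, 23.4 RPKM in RZ and 2.83.

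The machinery that lengthens, shortens and reads tails had a median of 0.31 over 74 genes, with 17 (23%, against 20.6% of all genes) at the high end and 10 (13.5%, against 21.8%) at the low end. The median was -0.02 when centred on the genes with 5 RPKM in both libraries. Nuclear and somatic polyA binding protein genes were high, as pabpn1 had 56.8 RPKM in polyA, 12.8 RPKM in RZ and a centred ratio of 2.78, and pabpc1 had 45.5 RPKM in polyA, 13.0 RPKM in RZ and 2.44. Of the oocyte forms, pabpn1l had 10.15 RPKM in polyA, 55.8 RPKM in RZ and -1.83, and pabpc1l had 7.33 RPKM in polyA, 17.3 RPKM in RZ and -0.61. The cytoplasmic polyA polymerase gene papd4 had 17.1 RPKM in polyA, 9.08 RPKM in RZ and 1.55. The deadenylase gene parn had 4.23 RPKM in polyA, 25.3 RPKM in RZ and -1.95. The 8 genes of the CCR4-NOT deadenylase, grouped after the values were seen, were nearer the middle with a median of -0.40. Of these 8, 2 lay at the low end, against 21.8% of all genes, and 0 at the high end, against 20.6%. Of the Cpeb proteins, which bind cytoplasmic polyadenylation elements, cpeb1 had 79.4 RPKM in polyA, 64.5 RPKM in RZ and 0.93. All 4 Cpeb genes, also grouped after the values were seen, lay above 0 at stage 6, with a median of 1.01, and their oocyte median was -1.31. The lowest of them had 0.36, and its side of 0 depends on centring, which took off a median of -0.63. The stored-RNA protein gene zar1l had the highest mean of both libraries, with 320 RPKM in polyA, 136 RPKM in RZ and 1.87.

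Protein complexes whose subunits work in equal numbers were spread widely as well. The proteasome subunits had a median of 0.02 over 39 genes. At each end lay 9 (23.1%), near the shares of all genes, 20.6% at the high end and 21.8% at the low end. The highest of the list was psmb6, a subunit of the inner ring, with 556 RPKM in polyA, 62.0 RPKM in RZ and a centred ratio of 3.80, against the -4.23 of psma3. The 7 genes of the inner ring had a median of 1.58 and the 18 genes of the cap that unfolds substrates had -0.57, both groups chosen after the values were seen. Of the initiation factor eIF3, eif3h had 70.6 RPKM in polyA, 24.7 RPKM in RZ and 2.15, and eif3b had 6.23 RPKM in polyA, 76.1 RPKM in RZ and -2.98. Among the cytoskeletal genes actb, for a cytoplasmic actin, had 18.7 RPKM in polyA, 417 RPKM in RZ and -3.84, while the near-identical actg1 had 189 RPKM in polyA, 262 RPKM in RZ and 0.17. Reads that map to both actins were left out, so the split between them is uncertain. In oocyte actb stood at -1.39 and at stage 9 at -0.75.

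The genes with the highest RPKM differed between the libraries. In polyA they were cox3, ftmt, eif1b, slc25a5 and rps20, all with a centred ratio above 2. The gene ftmt, listed under the name of mitochondrial ferritin, which stores iron, had 752 RPKM in polyA, 207 RPKM in RZ and a centred ratio of 2.50, the start codon selection factor eif1b had 711 RPKM in polyA, 227 RPKM in RZ and 2.28, and the ADP and ATP carrier slc25a5 had 669 RPKM in polyA, 195 RPKM in RZ and 2.41. In RZ the 5 were ccnb1, mt4, rps29, actb and ccnb2. The metallothionein mt4, which binds zinc and copper, had 279 RPKM in polyA, 446 RPKM in RZ and a centred ratio of -0.05.

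At the oocyte and late blastula (stage 9) stages the same ratio was formed from other libraries, each centred on its own median. The genes 2-fold or more above the median at stage 6 had a median of 0.62 in oocyte and 0.66 at stage 9, and those 2-fold or more below it had -0.52 in oocyte and -0.35 at stage 9. Of the high-end genes 38.1% were also 2-fold or more above the median in oocyte (21.1% of all 8839 genes with a ratio there) and 38.2% at stage 9 (17.4% of 8814). Of the low-end genes 36.6% were 2-fold or more below it in oocyte (23.9% of all) and 21.5% at stage 9 (12.3% of all). The gene levels behind this differed by library. The low-end genes had a median polyA level of 9.80 RPKM in oocyte, 2.09 RPKM at stage 6 and 10.3 RPKM later, at stage 9, and a median RZ level of 12.7 RPKM in oocyte, 11.3 RPKM at stage 6 and 11.7 RPKM later. For the high-end genes the median polyA level was 18.1 RPKM in oocyte, 14 RPKM at stage 6 and 23.8 RPKM at stage 9, and the median RZ level 10.1 RPKM in oocyte, 6.30 RPKM at stage 6 and 12.4 RPKM at stage 9. Over all genes of the comparison the median level was also lower at stage 6 than in oocyte and at stage 9, in polyA and in RZ alike. Choice by the stage 6 ratio also favours a low stage 6 level, in polyA for low-end genes and in RZ for high-end genes. The stage 6 lows are therefore partly built in and cannot be read as a trait of these genes.

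**Figure D4:**
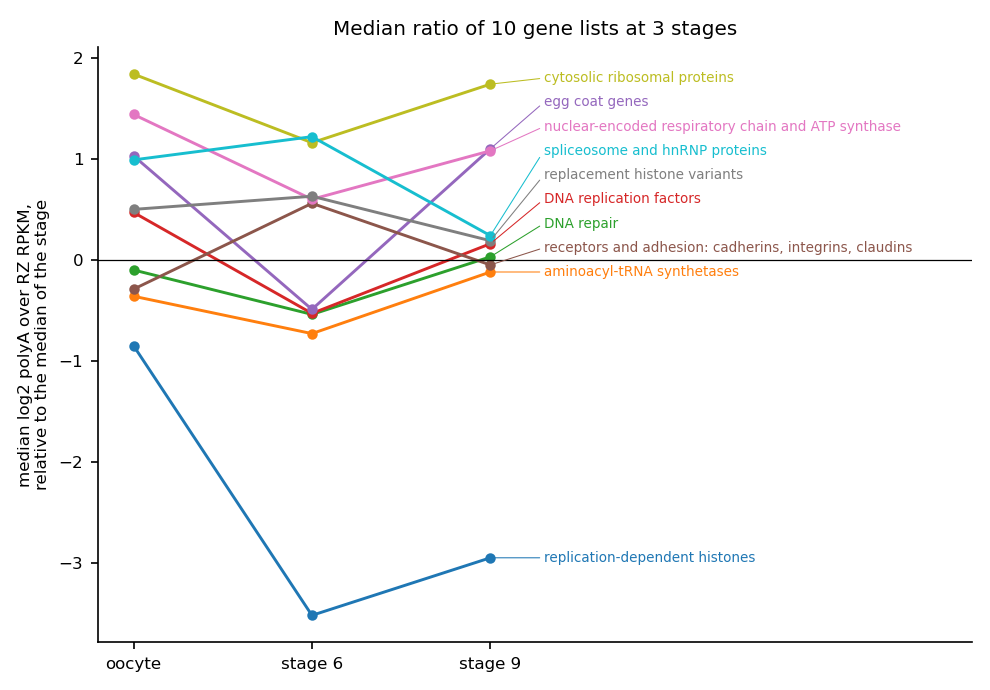
Median centred log2 ratio of polyA over RZ (vertical axis) of the 5 lowest and 5 highest gene lists at stage 6, with the same lists in oocyte and at stage 9 (horizontal axis). The histones lie at -0.85, -3.52 and -2.95, the ribosomal proteins at 1.84, 1.16 and 1.74, and the egg coat genes at 1.03, -0.49 and 1.10.

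The lists followed differing courses over these stages, and since each stage has 1 library pair the differences were not tested. Over the 11 replication-dependent histones with a ratio at all 3 stages, the median was -3.37 at stage 6, next to -0.85 in oocyte and -2.96 at stage 9. The 79 ribosomal proteins stood at 1.84, 1.16 and 1.74 in the same order, and the 71 respiratory chain genes at 1.44, 0.60 and 1.08. The 70 mitochondrial ribosomal proteins had 1.18 in oocyte, 0.11 at stage 6 and 1.12 at stage 9. For these last 3 lists the lowest of the 3 medians was that of stage 6. The 60 splicing genes had 1.0 in oocyte, 1.22 at stage 6 and 0.26 at stage 9. Zinc finger genes (Znf and Zbtb), many of them transcription factors, had -0.83 in oocyte, -0.32 at stage 6 and -0.05 at stage 9 over 145 genes. At stage 6 they held 25 of 146 genes (17.1%, against 20.6% of all genes) at the high end and 46 (31.5%, against 21.8%) at the low end. Their stage 6 median lay between -0.65 and 0.23 under the alternatives that centre the ratio and so has no fixed sign.

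Several properties moved with the ratio, and their part in the results was not tested. Genomic span was one. Of the 2229 genes with the shortest span (117 to 9225 bp) 31.7% lay at the high end and 16.1% at the low end. Of the 2226 with the longest span (33784 to 419621 bp) 14% lay at the high end and 27.4% at the low end. Across the 8905 genes Spearman's rho between the ratio and span was -0.20, a description over genes that share both libraries and are not independent replicates. The ratio also varied with level, and the share at the high end was 28.2% among the 2226 genes of the highest mean level and 16.5% among the 2227 of the lowest. Mean level is made from the same 2 RPKM values as the ratio, so it is no separate property. The filter of 1 RPKM acts on these values too, and 845 genes reached it in RZ alone against 210 in polyA alone. Place in the assembly went with the widest gap. The 819 genes outside the large sequences numbered scaffold 1 to scaffold 10 had a median of 1.03, with 50.9% at the high end and 9.40% at the low end, whereas the 8086 genes on scaffolds 1 to 10 had a median of -0.07, with 17.5% at the high end and 23% at the low end. The other scaffolds held 22.8% of the high-end genes and 3.98% of the low-end genes. With genes on scaffolds 1 to 10 alone, a setting added after the data were seen, the median of the spliceosome and hnRNP list was 1.32, that of the cytosolic ribosomal proteins 1.24 and that of the replication-dependent histones -1.73.

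**Figure D5:**
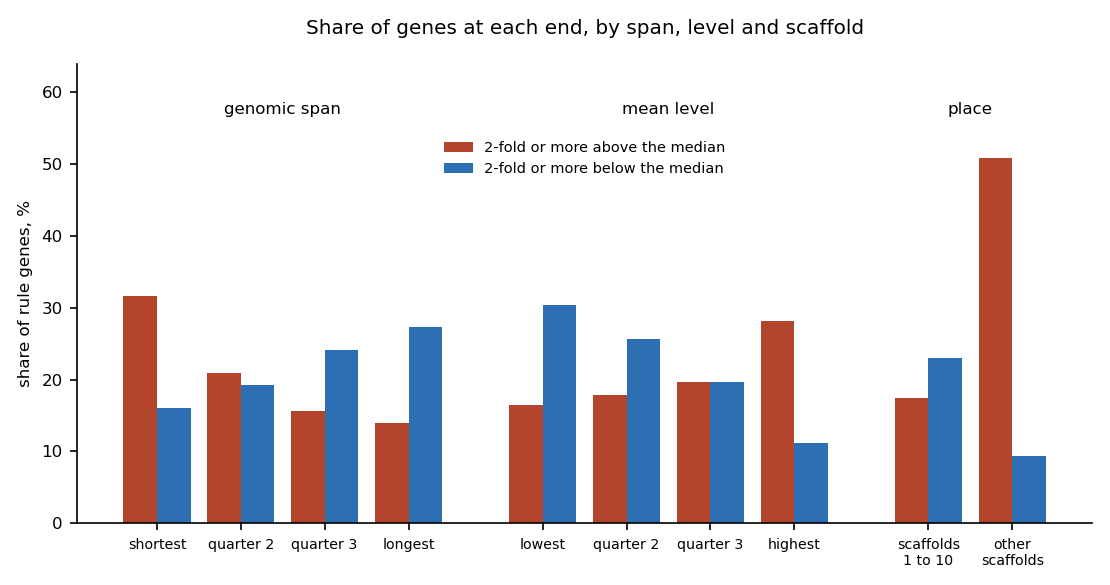
Share of genes (vertical axis, percent) 2-fold or more above (red) and below (blue) the median ratio at stage 6, by genomic span and by mean level in both libraries (each in 4 bins of nearly equal size), and by scaffold. On other scaffolds than 1 to 10 the shares are 50.9% and 9.40%.

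The 155 single-exon genes gave reads, and with them counting error. Their median centred ratio was 0.09. Of 46 at the high end 44 had a whole 95% interval above 0, and of 38 at the low end 36 had a whole interval below 0, so few of these calls lay within the counting error of the reads. The low end included, besides histones and h2afx, zswim3 with 370 reads in polyA, 2320 reads in RZ and a centred ratio of -3.01 (95% interval -3.17 to -2.85), and the RNA helicase gene ddx28 with 13 reads in polyA, 102 reads in RZ and -3.33 (95% interval -4.29 to -2.49). The high end included sox4, a transcription factor gene, with 365 reads in polyA, 65 reads in RZ and 2.13 (95% interval 1.75 to 2.53), and dand5, whose product blocks Nodal, with 700 reads in polyA, 126 reads in RZ and 2.11 (95% interval 1.84 to 2.40). The cell cycle kinase gene mos, which holds the egg in meiosis, had 44.4 RPKM in polyA, 54.9 RPKM in RZ and 0.33. These genes were picked from the single-exon list after their values were seen.

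The cDNA was primed with random hexamers and made double-stranded, so reads of overlapping genes cannot be told apart by strand. Of the genes named here rpl5 (with evi5), rps3a (lrba), hnrnpa1 (cbx5), pole (pxmp2), ndufc1 (naa15), mcm7 (ap4m1), h3f3b (unk) and nat9 (tmem104) overlap another gene of the table. The 1046 genes that overlap another had a median centred ratio of 0.00 and the 7859 that do not had the same, to the second decimal. At the high end lay 17.4% of the overlapping genes and 21% of the others, and at the low end 19.9% and 22%. Values over the whole group cannot show how far a single gene is affected, which was not tested.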

How the data were processed

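The deposited table held RPKM values of 15288 genes in 6 polyA and 3 RZ libraries. The authors mapped reads to the JGI 7.1 assembly (their processing notes name BWA 0.6.1), left out reads with several positions, used Xenbase gene models and took the mean RPKM over all exons of a gene. The header gives the sample names in a single field, and columns were read in that order. Each library held pooled RNA of 3 biological replicates, so nothing was tested.

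Ratios were log2 of polyA over RZ RPKM with no pseudocount. Mapped reads came from single-exon genes, for which RPKM times length times mapped reads is within 0.001 of a whole number in all 9 libraries. For the 155 such genes the exact binomial (Clopper-Pearson) interval of the polyA share of reads gave that of the ratio, at the 95% level and with the median taken as fixed. Members and lists were chosen with earlier results of these data known. Lists were patterns on symbols and took a few other genes, such as Argonautes among the initiation factors.

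Named were the 8 highest and 8 lowest ratios with 10 RPKM in 1 library and a symbol of their own; in the 5 highest and 5 lowest lists, the 3 most abundant members and the one farthest out; genes at 0 in 1 library; the 5 most abundant genes of each library; genes at the edge of the filter; and members of lists described. Of these, 1 of the highest ratios and 1 list member are not reported here. Alternatives were other filters, pseudocounts of 1 and 0.1, other centrings and a 4-fold threshold, with scaffolds 1 to 10 alone added after the data were seen. Of the 8905 symbols, 7772 matched a RefSeq symbol and 552 a synonym. The steps were tested on simulated data with known ratios. No sequence is shown. Python 3.11.15 with numpy, pandas and scipy was used.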

Additional observations from a re-analysis of the deposited data

Results flagged for a closer look

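Some lists had a centred median on the other side of 0 at another stage, at least 1 log2 unit away. Each stage had 1 library pair, so these differences were not tested. The DNA replication factors had a median of -0.53 at stage 6 (19 of 48 genes above 0) and 0.47 in oocyte (34 of 49). For the egg coat genes it was -0.49 at stage 6 (3 of 8 genes above 0), 1.03 in oocyte (7 of 8) and 1.10 at stage 9 (8 of 8). The Wnt pathway list had 0.31 at stage 6 (17 of 26 genes above 0) and -0.85 in oocyte (10 of 29). Over the 26 Wnt genes with a ratio at all 3 stages the oocyte median was -0.45, which is less than 1 unit away, and the stage 6 median was -0.08 with genes of 5 RPKM in both libraries and -0.02 when centred on those genes. The genes of differentiated tissue had -0.30 at stage 6 over 7 genes and 2.98 at stage 9 over 12 genes, and over the 7 genes with a ratio at all 3 stages the stage 9 median was 0.91. The stage 6 median of this list has no fixed sign, as it was 0.07 with 1 RPKM in both libraries and also with no filter, 0.10 with a pseudocount of 1 and 0.64 within bins of mean level.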

How the results depend on the processing

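At least 2-fold above the median were 1832 genes and below it 1937. These counts were 659 and 681 among genes with at least 5 RPKM in both libraries, 577 and 604 with a 4-fold threshold, and 888 and 3414 without centring. The other settings, scaffolds 1 to 10 alone (added after the data were seen) included, kept both counts within 1.5 times, at 1271 to 2398 above and 1383 to 2651 below. The SD over genes, 1.36, was 1.23 with 1 RPKM in both libraries, 1.03 with 5 RPKM in both, 1.47 with no filter and 1.07 with a pseudocount of 1, and it was between 1.30 and 1.36 in the rest. A median of 0.5 or more from 0 was found in 9 lists, in 7 to 12 under the settings that centre the ratio, and in 25 without centring. Of those 9 lists, 3 changed side of 0 without centring, to -0.04 for the respiratory chain, -0.01 for the replacement histone variants and -0.07 for the cell contact genes. Of the 35 lists, 18 kept the side of 0 with the median of genes of 5 RPKM or more as centre, and 13 without centring. Of 61 named genes 52 kept their side of the 2-fold threshold without centring, 57 within bins of span and 50 within bins of level. With 1 library per condition the replicate error is unknown. Depth is known for single-exon genes only.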

Other observations

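Families were also formed from the letters that start a symbol, which gave 89 with at least 10 genes in the comparison, and these were looked at after the values were seen. Their counts too are to be read against the shares of all genes, 20.6% at the high end and 21.8% at the low end. At the low end, after the histones, stood symbols beginning with mcm (median -1.58 over 10 genes, 6 of them 2-fold or more below the median of all genes). Next were those beginning with pik, for phosphoinositide kinases and their partners, with -1.43 over 11 genes, 7 of them at the low end, and kdm, for histone demethylases, with -1.16 over 13 genes, 7 at the low end. The pik genes had a median of -2.06 in oocyte and -0.57 at stage 9, and the kdm genes had -1.27 in oocyte and -0.65 at stage 9, so both families lay below 0 in all 3 pairs of libraries. After abhd, kif, klhl, zbtb, ints, sema and ttc, whose medians lay between, came the usp genes, for ubiquitin proteases, with -0.50 over 40 genes with 13 at the low end and 3 at the high end, and with -1.26 in oocyte.

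The highest medians, after those of the rps and srsf symbols, began with lsm, for small RNA binding ring proteins, with 0.83 over 12 genes, 3 of them at the high end, a share near that of all genes, and 0 at the low end. The atf family of leucine zipper transcription factors had 0.76 over 10 genes with 4 at the high end and 0 at the low end. After trmt, ndufa and ndufb, whose medians lay between, came the nup family of nuclear pore genes, with 0.67 over 19 genes. At the high end lay 6 of them, and 4, nup155 among them, lay at the low end, a share near that of all genes. The median of the nup genes was -0.27 in oocyte and 0.19 at stage 9. The wider list of nucleoporins and transport receptors had a stage 6 median of 0.03 over 47 genes. It held 9 (19.1%) at the high end and 11 (23.4%) at the low end, near the shares of all genes.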
